A study of Arabidopsis thaliana with 4 samples.

Results

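The genes described here were 10 loci of brassinosteroid signalling and metabolism, out of 27444 protein-coding genes of *Arabidopsis thaliana*. They comprised the receptors *BRI1*, *BRL1* and *BRL3*, the co-receptor *BAK1*, the kinase *BIN2*, the transcription factors *BES1* and *BZR1*, the synthesis enzymes *DWF4* and *CPD*, and the inactivating enzyme *BAS1*. For each locus, every site of the FRUITFULL (FUL) binding list was taken, whatever its score, if its maximum fell in a window that reached from 3000 bp before the start codon to 1000 bp past the stop codon. By this rule 5 of the 10 loci had a site and the 10 windows contained 5 of the 2831 sites of the list.

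FUL is a MADS domain transcription factor that acts in the developing pistil and fruit, and the experiment asked which DNA it binds there. All samples came from pFUL:FUL-GFP *ful-1* plants, in which the promoter of *FUL* drives a fusion of FUL with green fluorescent protein in the *ful-1* mutant, in a mixed Col/Ler background. Pistils and siliques of stages 12 to 16 were harvested from plants grown at 22 °C in long days of 16 h light and 8 h dark, with approximately 1 g of tissue per replicate. There were 2 ChIP replicates precipitated with a GFP antibody and 2 input DNA samples as controls. No plants without the fusion protein were among the samples.

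The list gives 1 score per site, the authors' value for enrichment over the input with both replicates combined. No value per sample was present, so no error, no confidence interval and no test could be given for any site, and the sequencing depth is unknown. Scores ranged from 2.99 to 1071.13, with a median of 4.43 and quartiles of 3.4 and 6.81, and enrichment weaker than the lowest score could not be detected. The scores took 234 distinct values for 2831 sites, and 689 sites shared the score 3.4, so a rank near the lower end of the list separates sites poorly.

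Brassinosteroids are steroid hormones that promote cell expansion, cell division and reproductive development. The hormone is bound at the cell surface by BRI1 or its relatives together with BAK1, which leads to inactivation of the kinase BIN2 and lets the transcription factors BES1 and BZR1 accumulate in the nucleus. BES1 and BZR1 bind E-boxes, the G-box and the brassinosteroid response element, and they repress synthesis genes such as *DWF4* and *CPD* in a feedback loop, whereas BAS1 inactivates the hormone by hydroxylation.

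The sequences at the maxima are shown first because they carry the motifs to which the sites were compared. The CArG box, the target of MADS domain proteins, was searched as 2 C, 6 A or T and 2 G, the G-box as CACGTG, the E-box as CANNTG, and the brassinosteroid response element (BRRE) as CGTGTG or CGTGCG, on both strands. A G-box is also an E-box. Motif results refer to the 100 bp on each side of the maximum unless stated otherwise. Capitals mark the CArG box, exact or with 1 mismatch, the G-box and the BRRE. The sequences were read from the RefSeq TAIR10.1 genome in the direction of the gene. The maxima of the *BAK1* and *BES1* sites lay in annotated 5′ UTRs (at *BES1* in 3 of 5 isoforms). These sites are shown only as 30 bases around the motif.
BRI1 site, chr4:18322746-18322946, plus strand: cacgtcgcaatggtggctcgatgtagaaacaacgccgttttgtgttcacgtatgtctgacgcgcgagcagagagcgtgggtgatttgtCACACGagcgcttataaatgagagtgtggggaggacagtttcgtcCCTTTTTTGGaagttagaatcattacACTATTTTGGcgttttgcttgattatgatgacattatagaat
BAK1 site, chr4:16090671-16090700, minus strand: ttgtttcgacCCTTTTTTAGtatatttcca
BES1 site, chr1:6688605-6688634, plus strand: attcatcatcgaCACGTGgctggtttaact
BZR1 site, chr1:28183788-28183988, plus strand: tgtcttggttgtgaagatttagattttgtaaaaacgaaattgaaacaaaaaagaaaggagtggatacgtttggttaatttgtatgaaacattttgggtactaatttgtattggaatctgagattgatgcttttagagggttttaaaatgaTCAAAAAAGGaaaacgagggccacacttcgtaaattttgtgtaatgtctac
BAS1 site, chr2:11382621-11382821, plus strand: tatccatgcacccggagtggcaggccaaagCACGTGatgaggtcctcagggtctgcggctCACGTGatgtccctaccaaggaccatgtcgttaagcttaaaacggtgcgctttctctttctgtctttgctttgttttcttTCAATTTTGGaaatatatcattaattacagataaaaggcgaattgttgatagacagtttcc

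The 5 loci with a site were *BRI1*, *BAK1*, *BES1*, *BZR1* and *BAS1*, so that each level of the pathway except the kinase and the synthesis enzymes was represented. The share of all protein-coding genes with a site under the same rule was 14.0%. The sites of *BRI1* (score 33.42), *BAS1* (24.24) and *BES1* (14.22) lay above its upper quartile, whereas those of *BZR1* (4.43) and *BAK1* (3.4) were equal to its median and its lower quartile. Each of the 5 loci had 1 site. The windows of the 10 loci were longer than those of other genes, with a median of 7498 bp (5355 to 8675 bp) against 5568 bp. Per length they contained 7.03 sites per 100 kb, against 2.38 over the whole of chromosomes 1 to 5. The latter includes DNA outside all gene windows, and the density over the windows of all genes was not calculated. These shares and densities are descriptions of 1 list and were not tested. The loci were chosen with earlier results of these data known, so the contrasts with all genes are not independent of the list.

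**Figure D1:**
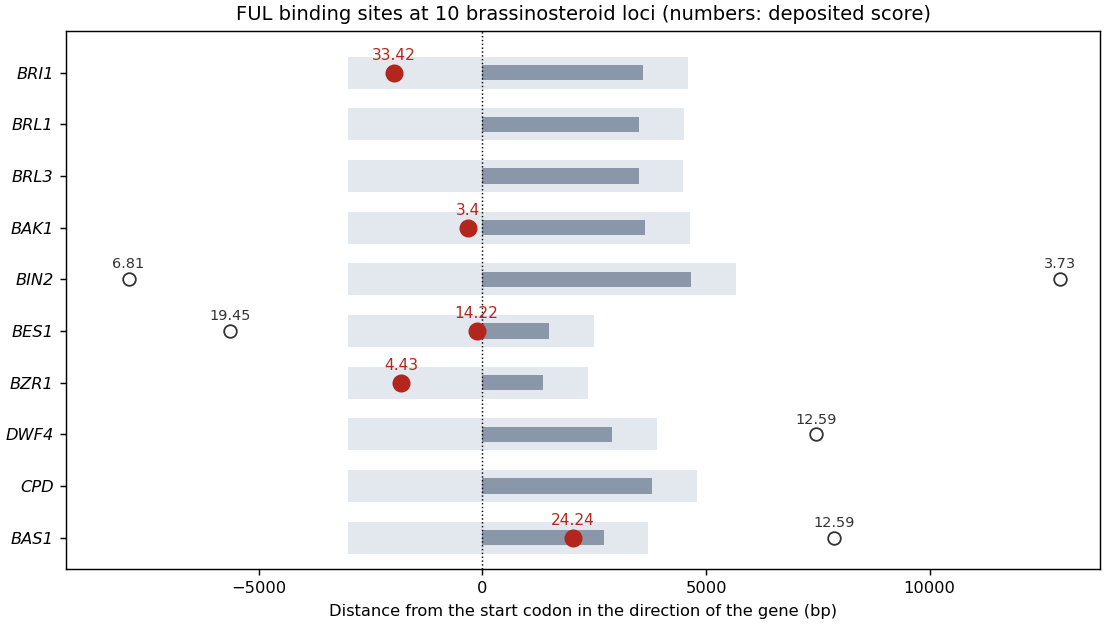
Positions of FUL binding sites at the 10 loci. The x axis gives the distance from the start codon in bp in the direction of the gene, light bars show the window and dark bars the stretch from start to stop codon, filled circles the sites in the window and open circles the nearest sites outside it that fall within the plotted range, each with its score. The sites of *BRI1*, *BAK1*, *BES1* and *BZR1* lie upstream of the start codon, that of *BAS1* lies within the gene, and the other 5 windows are empty.

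Among the receptors, a site was found at *BRI1* only. *BRI1* (AT4G39400), the leucine-rich repeat receptor kinase that binds the hormone in most tissues, had the highest score of the 10 loci. Its site at chr4:18322625-18323046 had a score of 33.42, which was rank 48 of the list and shared by 6 sites, and 98.1% of the sites scored lower. With 421 bp the interval was longer than 96.0% of the sites. The maximum, at position 18322846, was intergenic, 1611 bp upstream of the transcript start and 1980 bp upstream of the start codon. No other protein-coding gene had this site in its window, so its assignment to *BRI1* was the only possible one under the rule.

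The *BRI1* site was the only one of the 5 with an exact CArG box. The box, CCTTTTTTGG at chr4:18322879-18322888, began 33 bp from the maximum, and its last base was 1938 bp before the start codon. An element with 1 mismatch, ACTATTTTGG, began 59 bp from the maximum on the same side. On the other side of the maximum, 7 to 12 bp away, was a BRRE that reads CACACG in the printed strand. Within 100 bp of the maximum there was neither a G-box nor any other E-box, and the rest of the interval was not searched for them.

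*BRL1* (AT1G55610) and *BRL3* (AT3G13380) encode relatives of BRI1 that also bind brassinosteroids and act mainly in vascular cells. Neither had a site in its window. The nearest site of *BRL1* was 20259 bp downstream of the stop codon and had a score of 6.81, and the nearest of *BRL3* was 36128 bp upstream of the start codon and had a score of 3.4. *BRL2*, the remaining family member, had no site in its window either. Thus 1 of the 4 genes of the *BRI1* family had one, against 14.0% of all protein-coding genes.

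*BAK1* (AT4G33430), the co-receptor kinase that pairs with BRI1, had the weakest of the 5 sites. The site at chr4:16090614-16090754 had a score of 3.4, the value shared by 689 sites, and only 10.9% of the sites scored lower. Its maximum was in the 5′ UTR, 326 bp upstream of the start codon, that is 218 bp after the transcript start. The maximum coincided with the first base of the interval, as it did in 33.7% of all sites. The same site was 1406 bp upstream of the start codon of AT4G33440, which encodes a pectin lyase-like protein, although *BAK1* was the nearer gene.

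The *BAK1* site contained no exact CArG box. An element with 1 mismatch, CCTTTTTTAG at chr4:16090681-16090690, lay within the interval 67 to 76 bp from the maximum, and a further one, GCTTTTTTGG, lay outside the interval 75 to 84 bp from the maximum on the other side. Both were in the 5′ UTR. *BAK1* belongs to the *SERK* family, of which *BAK1*, *SERK1*, *SERK2* and *SERK4* were examined. Of these 4 genes 2 had a site, against 14.0% of all protein-coding genes. The other was *SERK4*, with a score of 4.43, the median of the list, at 221 bp upstream of the start codon. Its maximum, too, was the first base of the interval.

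*BIN2* (AT4G18710), the GSK3-like kinase that phosphorylates BES1 and BZR1, had no site in its window. The nearest sites had a score of 6.81 at 7911 bp upstream of the start codon and of 3.73 at 8240 bp past the stop codon. The former lay within the window of *CIPK12*, a calcium-regulated protein kinase gene, and the latter was nearest to *RLP51*, a receptor-like protein gene. Of *BIN2* and its 2 close relatives in the list of pathway genes, 1 had a site, against 14.0% of all protein-coding genes. It was *GSK1* (AT1G06390), with a score of 3.4 at 19 bp upstream of the start codon.

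*BES1* (AT1G19350) and *BZR1* (AT1G75080), the closely related transcription factors at the end of the pathway, each had a site. The *BES1* site at chr1:6688409-6688717 had a score of 14.22, rank 194, shared by 27 sites, and 92.2% of the sites scored lower. With 308 bp the interval was longer than 89.0% of the sites. The maximum at position 6688553 was 127 bp upstream of the outermost start codon, that of the long isoform, and 288 bp upstream of the innermost one. It lay in the 5′ UTR of 3 of the 5 annotated isoforms and outside the transcript in the other 2. No other protein-coding gene had the site in its window.

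The *BES1* site was the only one of the 5 with no CArG box within 100 bp of the maximum even when 1 mismatch was allowed. It contained a G-box 64 to 69 bp from the maximum, which is 58 bp upstream of the outermost start codon, and another E-box, CACATG, 87 to 92 bp from the maximum on the other side. A second and stronger site, with a score of 19.45 and rank 114, lay 5647 bp upstream of the *BES1* start codon and therefore outside the window. This site contained an exact CArG box and lay 257 bp after the start codon of AT1G19330, a gene annotated as a histone deacetylase complex subunit.

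The *BZR1* site was weaker than that of *BES1*. It occupied chr1:28183851-28184040 and had a score of 4.43, rank 1207, which 325 sites shared and below which 45.9% of the sites fell. The combined score does not show whether each replicate was enriched at this site. The maximum was 1616 bp upstream of the transcript start and 1821 bp upstream of the start codon. It was nearer to AT1G75060, of whose start codon it was 603 bp upstream, and a transfer RNA gene, AT1G75070, was 644 bp from it on the *BZR1* side. AT1G75060 is annotated as a histone deacetylase complex subunit, as is AT1G19330, which was noticed only after the sites had been listed.

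Within 100 bp of its maximum the *BZR1* site contained no exact CArG box and no G-box, E-box or BRRE. An element with 1 CArG mismatch, TCAAAAAAGG at chr1:28183938-28183947, lay within the interval 50 to 59 bp from the maximum. With a GC content of 31.3% within 100 bp of the maximum it was the most AT-rich of the 5 sites, the others having 38.3% (*BAK1*) to 44.8% (*BRI1*). Counted over the whole *BZR1* family, 4 of 6 genes had a site, namely *BES1*, *BZR1*, *BEH2* and *BEH3*, against 14.0% of protein-coding genes at any score. The sites of *BZR1* and *BEH3* had only the median score of the list, and each lay nearer to another protein-coding gene. Of the 4 genes, only *BES1* had a site at or above the upper quartile.

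The synthesis genes were without a site. *DWF4* (AT3G50660) encodes the C-22 hydroxylase commonly regarded as rate-limiting for brassinosteroid synthesis, and its nearest site was 4560 bp downstream of the stop codon. That site had a score of 12.59 and was nearest to AT3G50650, a GRAS family transcription factor gene, of whose start codon it lay 1602 bp upstream. The nearest site upstream of *DWF4* was 9997 bp from the start codon with a score of 5.12. *CPD* (AT5G05690), which encodes another cytochrome P450 of the synthesis route, had its nearest site 20645 bp upstream, with a score of 3.4.

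*BAS1* (AT2G26710) encodes a cytochrome P450 that inactivates brassinolide by C-26 hydroxylation. Its site at chr2:11382488-11382892 had a score of 24.24, rank 76, which no other site shared, and 97.3% of the sites scored lower. With 404 bp the interval was longer than 95.3% of the sites. It was the only one of the 5 sites past the start codon, with the maximum 2021 bp after it in a coding exon. The site was also 2061 bp upstream of the start codon of AT2G26720, which encodes a cupredoxin family protein, although *BAS1* was the nearer gene.

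The *BAS1* site contained 2 G-boxes, at 65 to 70 bp and 35 to 40 bp from the maximum, both in the coding exon. On the other side of the maximum, 40 to 49 bp away and in the following intron, was the element TCAATTTTGG with 1 CArG mismatch. No exact CArG box was found. A further site, with a score of 12.59 and an exact CArG box, lay 5152 bp downstream of the stop codon and only 56 bp upstream of the start codon of AT2G26730, a leucine-rich repeat kinase gene.

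**Figure D2:**
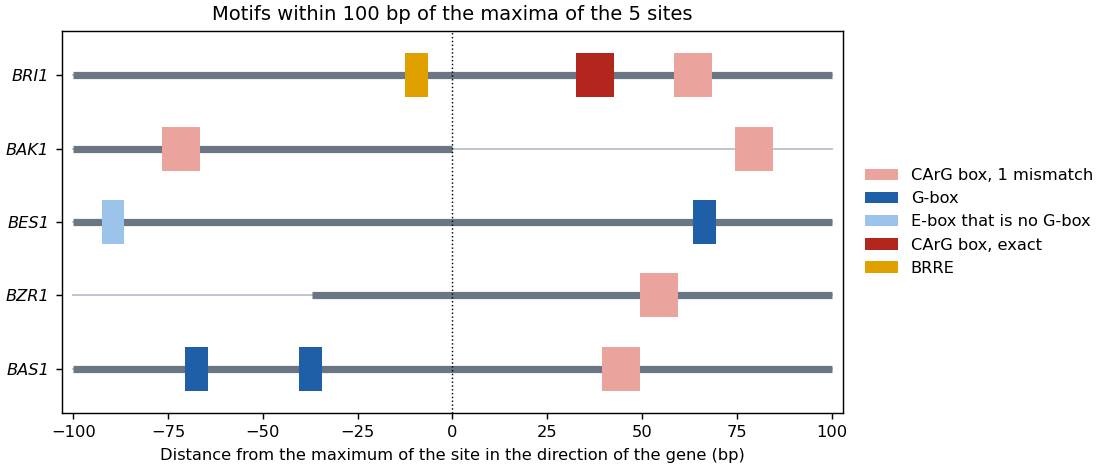
Motifs within 100 bp of the maxima of the 5 sites. The x axis gives the distance from the maximum in bp in the direction of the gene, thick lines mark the part covered by the site interval, and boxes mark motifs coloured by kind. An exact CArG box is present at *BRI1* alone, and G-boxes are present at *BES1* (1) and *BAS1* (2).

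Compared with the whole list, the 5 sites were few and their motif counts are given as descriptions. An exact CArG box was present in 1 of 5 sites, in 4.77% of all sites and in 1.1% of 5536 control windows of equal length lying 3000 bp away. With 1 mismatch allowed the counts were 4 of 5 sites, 32.1% of all sites and 23.2% of control windows, so that this looser form was frequent in the control windows too. A G-box was present in 2 of 5 sites, in 13.1% of all sites and in 2.78% of control windows. Any E-box was found in the same 2 sites and in 56.7% of all sites, against 52.0% of control windows. The BRRE form CGTGTG was present in 1 of 5 sites and 7.59% of all sites, and the form CGTGCG in 0 of 5 and 3.39%, with 3.43% and 1.26% of control windows. Of the sites at or above the upper quartile, 10.1% had an exact CArG box and 17.8% had a G-box. Among the 3 loci in this range, *BRI1* had the CArG box and *BES1* and *BAS1* had the G-boxes.

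**Figure D3:**
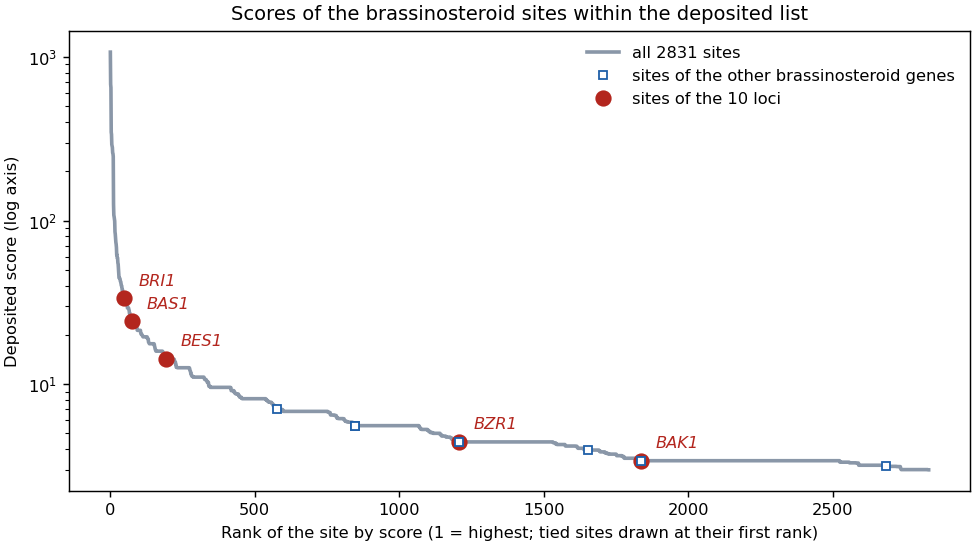
Scores of all 2831 sites in rank order, with the score on a log axis, and the sites of the 10 loci (filled circles) and of the other brassinosteroid genes (open squares, sites with the same score coincide). *BRI1*, *BAS1* and *BES1* are at ranks 48, 76 and 194 on the steep part of the curve, *BZR1* and *BAK1* on its flat part.

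The study applied a false discovery rate limit to the sites it reported, but the list used here carries no such value and also holds low scores, so that the *BZR1* and *BAK1* sites in particular cannot be taken as significant from it. Stricter score limits were therefore applied, namely the median and the upper quartile of the list and a fixed score of 10. At or above the median score 4 of the 10 loci kept a site, against 7.97% of protein-coding genes, the locus lost being *BAK1*. At or above the upper quartile, 3 loci remained (*BRI1*, *BES1* and *BAS1*), against 3.94%. The same 3 loci remained with a score of at least 10, against 1.74%. Because the loci were chosen with earlier results of these data known, these contrasts are not evidence of an excess. The window also mattered: with 1000 bp upstream and 500 bp downstream the loci with a site were *BAK1*, *BES1* and *BAS1*, because the sites of *BRI1* and *BZR1* are farther upstream. When each site was given only to the nearest protein-coding gene, *BZR1* lost its site and the other 4 kept theirs.

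To place the 10 loci in the rest of the pathway, 65 other genes of brassinosteroid synthesis, inactivation, perception and response were examined with the same rule. A site was present at 10 of them, 15.4%, which is close to the 14.0% of all protein-coding genes. The scores were low: 6 of the 65 (9.23%) had a site at or above the median, 1 (1.54%) at or above the upper quartile and 0 with a score of at least 10. By role, a site was present at 1 of 13 synthesis genes, 0 of 6 inactivation genes, 1 of 10 genes acting at the receptor level, 1 of 15 genes of the cytoplasmic relay, 5 of 13 genes of transcription and 2 of 8 genes of the bHLH growth module. With the loci above included, 1 of 15 synthesis genes and 1 of 7 inactivation genes had a site.

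The highest score among the 65 genes, 7.05, belonged to *IBH1* (AT2G43060), a bHLH protein that inhibits cell elongation, with the maximum 114 bp after the start codon in a coding exon. *SMT1* (AT5G13710), a sterol methyltransferase of early sterol synthesis, had 2 sites, with a score of 5.57 in the 3′ UTR 207 bp downstream of the stop codon and a score of 4.43 in an intron 349 bp after the start codon. *BEH2* (AT4G36780) and *BEH3* (AT4G18890), homologues of *BZR1*, had scores of 5.57 at 785 bp downstream of the stop codon and 4.43 at 1796 bp upstream of the start codon. None of these scores reached that of the *BES1* site.

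The remaining genes were at or below the median of the list. *IWS1* (AT1G32130), a transcription elongation factor that interacts with BES1, had a score of 4.43 at 2704 bp upstream of the start codon. The bHLH genes *BIM1* (AT5G08130) and *BIM3* (AT5G38860), whose proteins interact with BES1, had scores of 3.95 at 366 bp and 3.14 at 1101 bp upstream. The site of *IWS1* lay nearer to another protein-coding gene, AT1G32140, and that of *BIM3* nearer to AT5G38850. *HBI1* (AT2G18300), a bHLH gene that promotes cell elongation, had a score of 3.4 in an intron 392 bp after the start codon. The intervals at *BIM3* and *HBI1* were 2 and 9 bp long, against a median of 124 bp in the list. An exact CArG box was present in 0 of the 11 sites of these 10 genes (4.77% of all sites), and an element with 1 mismatch in 4 (32.1% of all sites). A G-box was present in 2, at *BEH2* and the downstream site of *SMT1* (13.1% of all sites), and any E-box in 10 (56.7% of all sites and 52.0% of control windows).

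**Figure D4:**
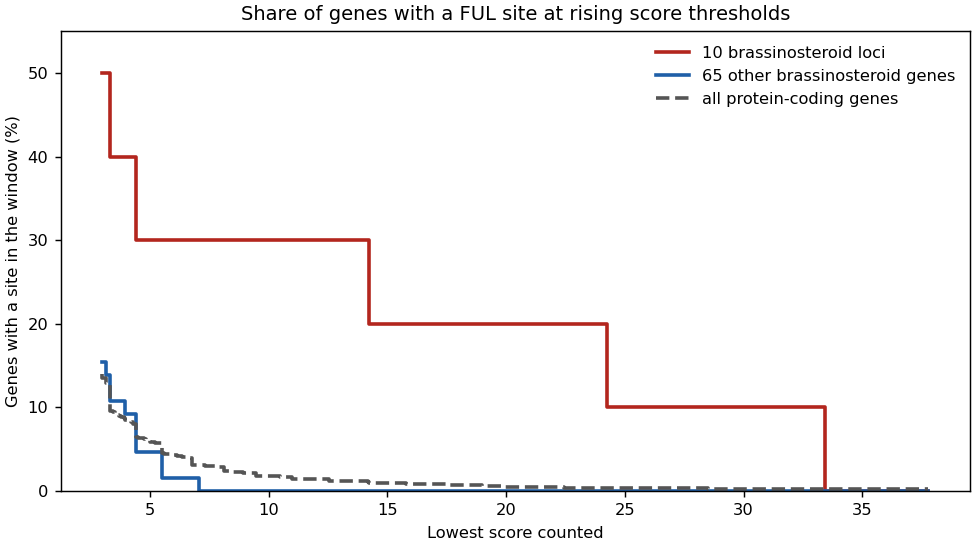
Percentage of genes with at least 1 site in the window (y axis) against the lowest score counted (x axis), for the 10 loci, the 65 other brassinosteroid genes and all protein-coding genes. The line of the 10 loci falls from 5 to 3 loci and stays there up to the score of *BES1*, 14.22, whereas the line of the 65 genes starts near that of all genes and reaches 0 above 7.05. The loci and the gene list were chosen with earlier results of these data known.

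The windows were also checked for sequence to which reads cannot be mapped uniquely. At least 96.3% (*BIN2*) of the 30-base words in each window had a single copy in the genome, as had all those around the 5 maxima. For *BRL1*, *BRL3*, *BIN2*, *DWF4* and *CPD*, no enrichment at or above a score of 2.99 was listed in the window, which does not show that FUL was absent there, because the depth of the libraries is unknown.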

How the data were processed

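Chromatin of 2 FUL-GFP ChIP replicates and 2 input samples was sequenced by the authors, who mapped reads to the TAIR9 genome with SOAPv2 without gaps and with up to 2 mismatches, kept unique matches, discarded plastid and mitochondrial reads, called sites with CSAR against the input and limited the reported sites by false discovery rate. The CSAR version is not given in the sources used here. The deposited list holds the limits of each site, where its maximum lies, and a score, the authors' enrichment value with both replicates combined, and it holds no counts, so that no depth or error per sample could be given.

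Positions were read as counted from 1. Genes and sequences were taken from TAIR10.1 of RefSeq, which has the same chromosome sequences as TAIR9, and all 2831 sites ended within its chromosomes. Windows ran from 3000 bp upstream of the outermost start codon among isoforms to 1000 bp downstream of the outermost stop codon. Motifs were searched within 100 bp of each maximum and in control windows 3000 bp to each side that touched no site. Nothing was tested for significance. Counts are set against the share over all protein-coding genes or all sites, and counts over small gene families and roles are to be read against the same share at any score. Named genes were the 10 loci, every protein-coding gene whose window holds one of their sites, and each of 65 other pathway genes with a site. Genes next to sites outside the windows were named after their values were seen. The loci and lists were chosen with earlier results of these data known. The assignment of sites to windows and the search for exact CArG boxes were tested on simulated data, and the other steps were not. Alternatives concerned the score limit, window, gene ends, point of the site, assignment and motif. Python 3.11.15, numpy 2.4.6, pandas 2.3.3 and matplotlib 3.10.9 were used.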

Additional observations from a re-analysis of the deposited data

How the results depend on the processing

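Of the 11 alternatives, 8 left the number of loci with a site, and the number of their sites, within 1.5 times of 5. With scores at or above the upper quartile, with scores of at least 10 and with the window of 1000 bp upstream and 500 bp downstream, both numbers were 3. The number of other pathway genes with a site, 10 of 65, was 6 at or above the median, 1 at or above the upper quartile, 0 with a score of at least 10 and 6 in the narrow window, and 7 other alternatives left it within 1.5 times. The number of loci ranged from 3 to 5 and that of other pathway genes from 0 to 13, the latter in the window of 5000 bp upstream and 2000 bp downstream. Of the 5 sites, 1 had an exact CArG box, also within 50 bp of the maximum and in the whole interval, and 4 had one when 1 mismatch was allowed. Setting the windows by the innermost codons among isoforms was an alternative chosen after seeing the data. No paired analysis was possible because the list holds no value per sample, and leaving out each replicate in turn, which was planned, could not be done for the same reason. The unknown depth limits every statement on windows without a site.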
